A study of Sus scrofa with 19 samples.

Results

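The genes considered here form the link between the muscle fibre membrane (sarcolemma) and the basement membrane: *LAMA2*, *DMD*, *DAG1*, *UTRN* and *SGCA*. All probe sets with exactly 1 of these symbols in the array annotation were taken, or, where the annotation gives no symbol, with that name in the gene table of the paper. This gave 3 probe sets by symbol, and 1 more (Ssc.11623.1.A1_at), listed in the paper's table under a locus number, was matched by that gene number to *LAMA2* in RefSeq. The 4 probe sets, of 23999 that are not controls, report 2 of the 5 genes: *LAMA2* has Ssc.10383.1.A1_at, Ssc.14356.1.A1_at and Ssc.11623.1.A1_at, and *DMD* has Ssc.27279.1.S1_at. No probe set was named *DAG1*, *UTRN* or *SGCA*, and these genes were not analysed here. The rule did not use the contrast of LD HIGH with LD LOW. The 3 *LAMA2* probe sets are named, however, through a table of genes that differ between the *gluteus medius* and *longissimus dorsi* (LD) muscles, which the paper drew up with LD arrays of this series.

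Expression was measured in LD samples (longissimus thoracis et lumborum in the labels) of 19 Duroc pigs of a commercial line, 190 days of age. Biotin-labelled target made from the RNA was hybridised to the GeneChip Porcine Genome Array, a short oligonucleotide array, with 1 array per pig. The 10 LD HIGH pigs (HIGH_fattening) and the 9 LD LOW pigs (LOW_fattening) stood at opposite ends of 350 slaughtered pigs ranked on 13 traits of carcass, plasma and muscle fat. The labels name no treatment and a commercial pellet feed for all pigs, and according to the paper's methods the population consisted of barrows of half-sib families. The groups therefore differ in a composite of fat traits. The labels give no family or array batch per pig, so the part of either in the results was not tested.

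Laminin α2, encoded by *LAMA2*, joins a β and a γ chain to form the laminin trimer typical of the muscle fibre basement membrane, which in mammals is laminin-211 with the products of *LAMB1* and *LAMC1*. Outside the fibre this laminin binds α-dystroglycan, which derives from *DAG1* and has to be glycosylated for the binding, and also integrin α7β1. Inside the fibre dystrophin, the product of *DMD*, ties β-dystroglycan to cortical actin, with sarcoglycans (α-sarcoglycan is *SGCA*), syntrophins and dystrobrevins in the same complex, while utrophin (*UTRN*) is the dystrophin paralogue found mainly at neuromuscular junctions of adult fibres. In humans and mice, loss of dystrophin or of laminin α2 causes muscular dystrophy. In RefSeq annotation of Sscrofa11.1, *LAMA2* lies on chromosome 1 (33765412 to 34359741), 594.3 kb long, and *DMD* on chromosome X (27028223 to 29650728), 2622.5 kb long. *UTRN* lies on chromosome 1 (20514264 to 21047927), *SGCA* on chromosome 12 (26356691 to 26368561) and *DAG1* on chromosome 13 (32028019 to 32092450). Which exons the probes cover was not examined.

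The deposited values are log2 signals that the authors normalized across arrays with GCRMA, and a difference of 1 stands for a 2-fold change. Array medians ran from 3.43 to 3.59 in LD HIGH and from 3.44 to 3.56 in LD LOW, and any 2 arrays correlated at 0.970 or more. The 17 tag controls, which match no porcine gene, gave the background, with a mean of 2.11. Of 18 skeletal muscle fibre genes 14 had a named probe set, and all 14 exceeded every tag control on all 19 arrays. So did 16202 of all 23999 probe sets, among them those of all 6 named fibroblast genes. Exceeding the controls thus shows detection and does not by itself identify the tissue. All 4 *LAMA2* and *DMD* probe sets also exceeded every tag control on all 19 arrays. Levels of different probe sets are not compared with each other, because their probes differ in affinity. Bulk muscle was measured, so fewer cells of a type and less RNA per cell cannot be told apart.

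*LAMA2* and *DMD* were readily detected in every pig and varied several-fold between animals, with no difference between LD HIGH and LD LOW beyond the spread between pigs. The first *LAMA2* probe set, Ssc.10383.1.A1_at, ran from 6.60 over a median of 7.73 to 8.44 in LD HIGH, and from 7.20 over a median of 7.65 to 8.07 in LD LOW (log2 signal). The 2 highest and the lowest of the 19 values were all LD HIGH pigs, and the LD LOW pigs lay within the LD HIGH range. Over all pigs the mean was 7.67 ± 0.43 (SD, n = 19) and the highest signal was 3.60 times the lowest. LD HIGH averaged 7.65 ± 0.52 (SD, n = 10) and LD LOW 7.69 ± 0.32 (SD, n = 9), a log2 difference of -0.03 with a 95% interval of -0.44 to 0.38.

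The second *LAMA2* probe set, Ssc.14356.1.A1_at, ran from 5.46 over a median of 6.69 to 7.62 in LD HIGH and from 6.17 over a median of 6.56 to 7.50 in LD LOW. Here too the lowest and the highest value belonged to LD HIGH pigs, 1533 and 1903. The mean over all pigs was 6.61 ± 0.50 (SD, n = 19), with a 4.47-fold range. LD HIGH averaged 6.60 ± 0.58 (SD, n = 10) and LD LOW 6.63 ± 0.43 (SD, n = 9), a log2 difference of -0.04 (95% interval -0.51 to 0.44).

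The third, Ssc.11623.1.A1_at, ran from 7.60 over a median of 8.80 to 9.52 in LD HIGH and from 8.21 over a median of 8.60 to 9.11 in LD LOW. Its 2 lowest values, 7.60 and 7.77, and its 3 highest, 9.20, 9.40 and 9.52, were LD HIGH pigs. Over all pigs it averaged 8.62 ± 0.50 (SD, n = 19), with a 3.79-fold range. LD HIGH averaged 8.70 ± 0.63 (SD, n = 10) and LD LOW 8.54 ± 0.29 (SD, n = 9), a log2 difference of 0.16 (95% interval -0.31 to 0.62). The 3 probe sets of *LAMA2* thus gave differences of -0.03, -0.04 and 0.16, each with an interval that spans 0.

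The *DMD* probe set, Ssc.27279.1.S1_at, ran from 6.44 over a median of 7.10 to 7.81 in LD HIGH and from 6.80 over a median of 7.30 to 7.70 in LD LOW. The 4 lowest values were LD HIGH pigs (8697, 1533, 2144 and 1536), as was the highest (1452), and 7 of 10 LD HIGH pigs lay below the LD LOW mean. *DMD* averaged 7.18 ± 0.40 over all pigs (SD, n = 19), with a 2.59-fold range. LD HIGH averaged 7.08 ± 0.47 (SD, n = 10) and LD LOW 7.29 ± 0.31 (SD, n = 9), a log2 difference of -0.21 (95% interval -0.59 to 0.17).

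**Figure D1:**
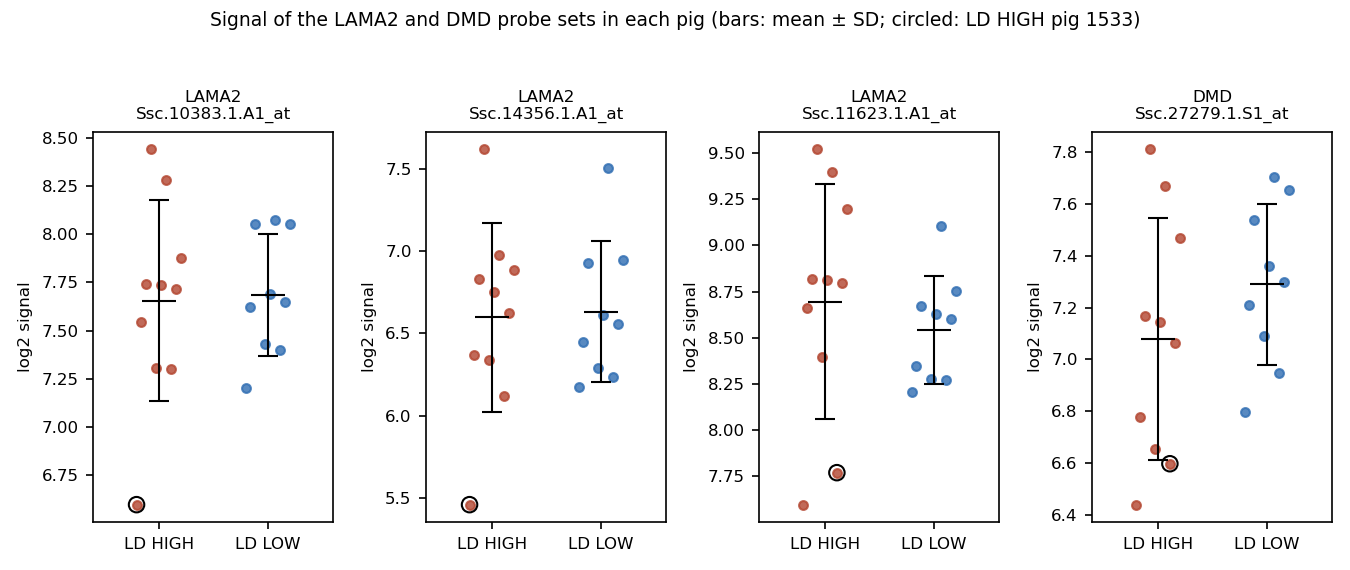
Log2 signal (vertical axis, a separate scale per panel) of the 3 *LAMA2* probe sets and the *DMD* probe set in LD HIGH (red, n = 10) and LD LOW pigs (blue, n = 9). Each point is 1 pig and bars give the mean ± SD. The groups overlap in every panel, and LD HIGH pig 1533 (circled) is the lowest on the first 2 *LAMA2* probe sets and the next to lowest on the other panels.

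In limma over all 23999 probe sets, 0 of the 4 probe sets passed an adjusted p of 0.05 between LD HIGH and LD LOW, as did 0% of all probe sets. The adjusted p was 0.993 for each of the 4, and the unadjusted p was 0.877, 0.876 and 0.491 for the *LAMA2* probe sets in the order above and 0.259 for *DMD*. At an unadjusted p under 0.05, again 0 of 4 passed, against 3.51% of all probe sets (449 higher and 394 lower in LD HIGH). Without LD HIGH pig 1536 that share was 6.83% (923 higher and 715 lower), and still 0 of 4 passed. Exact permutation tests over all 92378 splits of the pigs into 10 and 9 gave two-sided p = 0.883, 0.883 and 0.512 for *LAMA2* and p = 0.266 for *DMD*. The 95% intervals correspond to folds of LD HIGH over LD LOW of 0.738 to 1.30, 0.703 to 1.35 and 0.809 to 1.53 for the *LAMA2* probe sets and 0.665 to 1.12 for *DMD*. The design thus leaves room for differences within these bounds. The sign of the first 2 *LAMA2* differences rested on single pigs: without LD HIGH pig 1533 they were 0.09 and 0.09.

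The spread between pigs was larger than that of most detected transcripts. Of the 16202 probe sets that exceeded all tag controls on all 19 arrays, 73.2%, 82.2% and 81.9% had a smaller SD over the pigs than the first, the second and the third *LAMA2* probe set, and 69.5% a smaller one than *DMD*. The median SD of these probe sets was 0.31 on the log2 scale. They ran from dim to very bright. Small SDs occurred at either end, as for *ITGA6* (mean 2.76, SD 0.10) and *CKM* (mean 15.34, SD 0.07). Larger ones occurred there too, as for *ACTB* (mean 12.58, SD 0.54) and *KRT8* (mean 2.82, SD 0.32). The shares may also reflect signal level, which was not tested, and probe sets of like signal were not compared on their own. The SD within LD HIGH exceeded that within LD LOW on each of the 4 probe sets, with 0.52 in LD HIGH against 0.32 in LD LOW on the first *LAMA2* probe set, 0.58 against 0.43 on the second, 0.63 against 0.29 on the third and 0.47 against 0.31 for *DMD*. Of the 4 probe sets 3 report the same gene, and LD HIGH pig 1533 ranked 19th, 19th, 18th and 18th of 19 on them. How many other probe sets had the larger SD in LD HIGH was not counted, and the difference in spread was not tested.

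The probe sets of *LAMA2* ordered the pigs alike to different degrees. The first and the third varied together over the 19 pigs, with Pearson's r = 0.82 (permutation p = 1e-05, the smallest that 100000 resamples can give, adjusted over the 6 pairs of probe sets 6e-05) and Spearman's rho = 0.83 (p = 3e-05, adjusted 0.00018). LD HIGH pigs 1452 and 1903 were first and second on both, and the relation was as close within LD HIGH (r = 0.85) as within LD LOW (r = 0.84). Without the 2 pigs farthest from the median of the first probe set, 1533 and 1452, r was 0.73 (permutation p = 0.00088). Of the 16200 other detected probe sets, 0 correlated as highly with the first *LAMA2* probe set as the third did, and 15 as highly with the third as the first did.

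The second probe set followed the others less closely. With the first it gave r = 0.67 (permutation p = 0.0022, adjusted 0.0047) and rho = 0.55 (p = 0.016, adjusted 0.031), with r = 0.76 within LD HIGH and 0.45 within LD LOW, and r = 0.51 (p = 0.037) without pigs 1533 and 1452. Of the 16200 other detected probe sets, 5 correlated as highly with the second as the first did, and 28 as highly with the first as the second did. With the third it gave r = 0.53 (permutation p = 0.019, adjusted 0.029) and rho = 0.50 (p = 0.031, adjusted 0.046). As high an r was found with the second for 80 of the 16200 and with the third for 1287 (7.94%). That relation rested on few pigs, since r was 0.23 (p = 0.37) without pigs 1533 and 1903, 0.73 within LD HIGH and -0.01 within LD LOW. LD LOW pig 1550 shows the disagreement: it ranked 2nd of 19 on the second probe set with 7.50, and 10th and 14th on the first and the third with 7.69 and 8.35. Without LD HIGH pig 1533 alone, r was 0.50 (adjusted p = 0.073 by permutation) for the first and the second and 0.39 (adjusted p = 0.16) for the second and the third probe set.

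**Figure D2:**
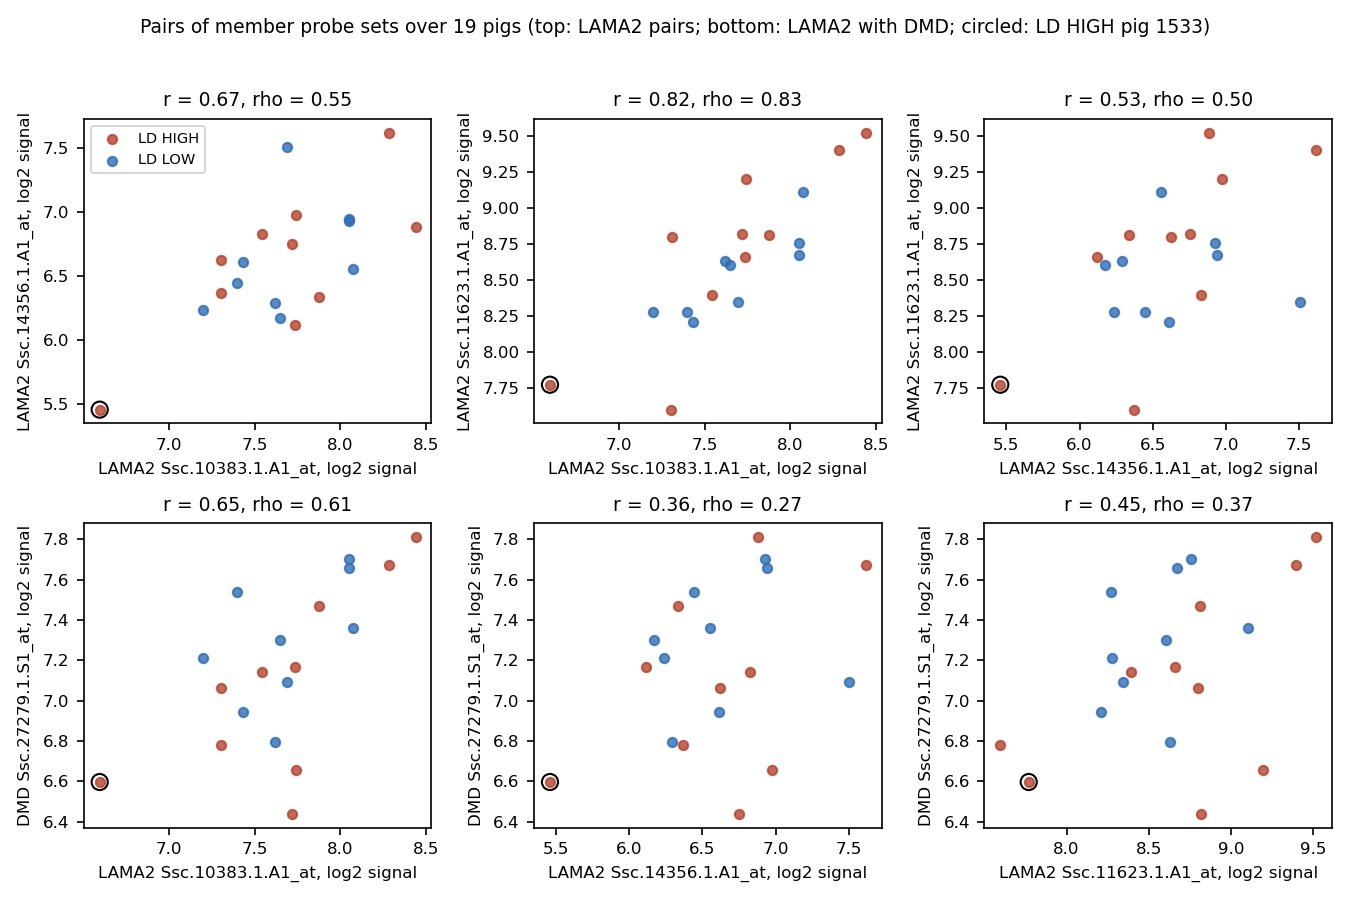
Each panel plots the log2 signals of 2 probe sets against each other, with 1 point per pig (red LD HIGH, n = 10; blue LD LOW, n = 9), the *LAMA2* pairs above and *LAMA2* with *DMD* below. The first and the third *LAMA2* probe sets form the narrowest band (r = 0.82), and LD HIGH pig 1533 (circled) lies at or near the low corner throughout.

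Across pigs, *DMD* followed the first *LAMA2* probe set. The relation was r = 0.65 (permutation p = 0.0024, adjusted 0.0047) and rho = 0.61 (p = 0.0064, adjusted 0.019), with r = 0.72 within LD HIGH, 0.50 within LD LOW and 0.49 (p = 0.047) without pigs 1533 and 1452. Of the 16200 other detected probe sets, 19 correlated as highly with *DMD* and 48 as highly with this *LAMA2* probe set. The values behind it at the upper end were 8.44 for *LAMA2* and 7.81 for *DMD* in LD HIGH pig 1452, and 8.28 and 7.67 in LD HIGH pig 1903. At the lower end LD HIGH pig 1533 had 6.60 for both. LD HIGH pigs 8697 and 2144 departed from it, with *DMD* at 6.44 and 6.66 while the first *LAMA2* probe set stood at 7.72 and 7.74.

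The other 2 *LAMA2* probe sets were not shown to vary with *DMD*. The third, which has the highest mean of the 3 and stands for the gene, gave r = 0.45 (permutation p = 0.054, adjusted 0.065) and rho = 0.37 (p = 0.11, adjusted 0.14), and r = 0.25 (p = 0.33) without pigs 1536 and 1533. It gave r = 0.57 within LD HIGH and 0.33 within LD LOW. As high an r with *DMD* was found for 404 of the 16200 probe sets, and with the third for 2011. The second gave r = 0.36 (permutation p = 0.14) and rho = 0.27 (p = 0.27), and r = 0.05 without pigs 1533 and 1903, 0.43 within LD HIGH and 0.20 within LD LOW. With *LAMA2* taken as the mean of its 3 probe sets, r with *DMD* was 0.54 (adjusted p = 0.023 by permutation). The median r of the 4 probe sets with all detected probe sets was between -0.05 and -0.03. The co-variation of the 2 genes thus depends on which *LAMA2* probe set is read.

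The arrays share variation that touches *LAMA2* unequally. The leading component of all other probe sets carried 18.8% of their variance and followed the third *LAMA2* probe set (r = 0.75, permutation p = 0.00018, adjusted over 4 probe sets 0.00072; rho = 0.77). With the first it gave r = 0.46 (adjusted p = 0.092), with the second 0.30 (adjusted p = 0.28) and with *DMD* -0.05 (adjusted p = 0.83), all by permutation. Within LD HIGH and LD LOW the third gave r = 0.80 and 0.63, and without LD HIGH pig 1536 over both groups 0.67. After each probe set was set against this component, the residuals of the third *LAMA2* probe set and *DMD* correlated at 0.74 (permutation p = 0.00025), those of the first and *DMD* at 0.76 (p = 0.00021) and those of the second and *DMD* at 0.39 (p = 0.098). Among *LAMA2* probe sets the residuals gave 0.82 for the first and the third (permutation p = 5e-05), 0.63 for the first and the second (p = 0.0043) and 0.48 for the second and the third (p = 0.036). Some probe sets above all tag controls on 0 arrays also followed the component, such as those of *KRT19* (r = -0.76) and *KDR* (r = -0.78). The brighter probe set of *LEP*, likewise on 0 arrays, gave -0.31. The component thus moved with background signal on some probe sets, and what it stands for was not tested.

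RNA integrity was read on each array as the 3' minus 5' log2 signal of the actin, EF1A and GAPDH control transcripts. It ran from 0.86 to 1.20 in LD HIGH and from 0.77 to 1.61 in LD LOW. *LAMA2* and *DMD* both have long transcripts. The r of this signal over the 19 pigs was -0.13, -0.12 and -0.04 for the *LAMA2* probe sets and -0.28 for *DMD* (permutation p = 0.59, 0.60, 0.86 and 0.25; adjusted over 4, 0.80, 0.80, 0.86 and 0.80; rho = -0.24, -0.20, -0.08 and -0.28). Within LD LOW the *DMD* value was -0.64 and within LD HIGH -0.04. The LD LOW value includes pig 1444, with the highest 3' minus 5' signal (1.61) and the lowest *DMD* signal of LD LOW (6.80). It was not computed without that pig. The array median correlated with the third *LAMA2* probe set at -0.57 (permutation p = 0.011, adjusted 0.045; rho = -0.48, adjusted 0.089), and at -0.38 without LD HIGH pig 1536, which had the highest array median and the lowest value of that probe set. The part of the array median in the *LAMA2* values was not tested.

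The partners of laminin α2 and dystrophin were read from lists of other genes, taking the brightest probe set (highest mean signal over the 19 pigs) of each gene. Of 15 other subunits of the dystrophin complex, 3 had a named probe set, and 0 passed an adjusted p of 0.05 in either direction. *SNTB1*, which encodes the adaptor β1-syntrophin, had means of 9.33 ± 0.36 in LD HIGH and 9.59 ± 0.33 in LD LOW (SD, n = 10 and 9; log2 difference -0.27, 95% interval -0.59 to 0.06). *DTNB*, for β-dystrobrevin, had a difference of -0.12 (-0.30 to 0.07) and *SGCD*, for δ-sarcoglycan, -0.08 (-0.39 to 0.23). The median difference of the list of 3, which is that of *DTNB*, was -0.12, beside -0.01 over all probe sets. *DTNB* was dim, with a mean of 3.43, though above all tag controls on all 19 arrays.

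Of 25 basement membrane genes 8 were named and 0 passed, with 4 differences above and 4 below 0 and a median of -0.02. *LAMB1*, the β1 chain partner of laminin α2, had means of 7.54 ± 0.70 in LD HIGH and 7.27 ± 0.44 in LD LOW (log2 difference 0.27, 95% interval -0.27 to 0.81). *NID2*, a nidogen that bridges laminin and collagen IV, had a difference of 0.21 (-0.14 to 0.56), *COL6A2*, a collagen VI chain of the adjoining matrix, -0.26 (-0.65 to 0.14) and *COL15A1*, a collagen of the basement membrane zone, -0.19 (-0.62 to 0.25). *LAMC1*, the γ1 chain partner, had means of 10.08 ± 0.26 in LD HIGH and 10.13 ± 0.39 in LD LOW on its brightest probe set.

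Of 14 genes of the integrin link, the second route from laminin to the fibre, 9 were named and 0 passed. At an unadjusted p under 0.05, 2 of the 9 were lower in LD HIGH, against 1.64% of all probe sets, and 0 were higher, against 1.87%. These were *TLN1*, for the integrin activator talin 1, with 6.59 ± 0.37 in LD HIGH and 6.94 ± 0.22 in LD LOW (difference -0.35, 95% interval -0.65 to -0.05), and *PARVA*, for the focal adhesion protein α-parvin, with 4.87 ± 0.29 in LD HIGH and 5.18 ± 0.34 in LD LOW (difference -0.32, -0.62 to -0.02), each with an adjusted p of 0.993 in limma. *LIMS1*, for the adaptor PINCH1, had a difference of -0.27 (-0.56 to 0.01) and *ITGB1BP2*, for the striated muscle integrin-binding protein melusin, 0.42 (-0.08 to 0.92). The median of the list was -0.03.

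**Figure D3:**
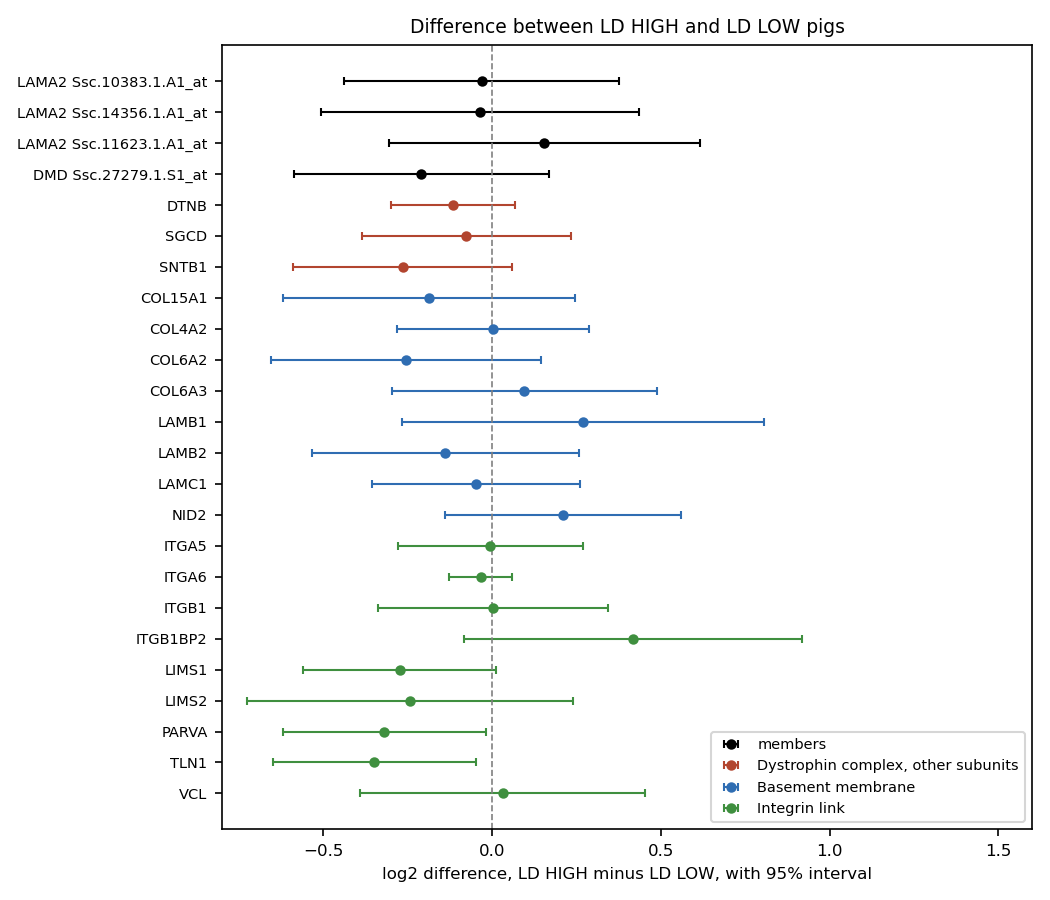
Log2 difference, LD HIGH minus LD LOW (horizontal axis), with its 95% interval from limma for the 4 *LAMA2* and *DMD* probe sets (black) and the named genes of the dystrophin complex (red), basement membrane (blue) and integrin lists (green). The intervals of the 4 *LAMA2* and *DMD* probe sets span 0, and those of *TLN1* and *PARVA* lie below 0 without adjustment.

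Most enzymes that glycosylate dystroglycan could not be followed. Of 18 genes 7 were named, 3 of them above the tag controls on all arrays, and 0 passed. *DPM2* and *GMPPB*, which act in the supply of mannose donors, were above all tag controls on 0 arrays. *DPM1*, of the same supply, had 8.99 ± 0.39 in LD HIGH and 8.76 ± 0.19 in LD LOW (difference 0.23, 95% interval -0.07 to 0.52). Its other detected probe set had a difference of -0.05 (-0.34 to 0.24). *POMT2*, an O-mannosyltransferase, had 2.35 ± 0.08 in LD HIGH and 2.58 ± 0.28 in LD LOW (difference -0.22, -0.41 to -0.04, unadjusted p = 0.019 and adjusted p = 0.993 in limma), and exceeded the controls on 3 arrays. It was the 1 of 7 with an unadjusted p under 0.05, against 1.64% of all probe sets that were lower in LD HIGH at that threshold. *POMT1*, its partner, exceeded them on 18 with a mean of 2.68. The list median was -0.04.

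Among the submembrane cytoskeleton 8 of 15 genes were named and 0 passed, with a median of -0.04. *ACTB*, cytoplasmic actin, had a difference of 0.26 (-0.22 to 0.75) on its brightest probe set and -0.24 (-0.61 to 0.13) on its other detected one, and *SPTAN1*, α-spectrin, -0.16 (-0.52 to 0.20). *KRT19*, a keratin that binds dystrophin in mice, was above all tag controls on 0 arrays, and *ANK3*, for ankyrin G, on 1. Of 15 genes of membrane repair and caveolae 6 were named and 0 passed, with a median of 0.14. *ANXA1*, an annexin recruited to membrane lesions, had means of 9.40 ± 0.60 in LD HIGH and 8.90 ± 0.45 in LD LOW (difference 0.50, 95% interval 0.01 to 0.99, unadjusted p = 0.045 and adjusted p = 0.993 in limma). *ANXA2* had a difference of 0.41 (-0.05 to 0.88), *CAVIN2*, a coat protein of caveolae, 0.16 (-0.25 to 0.58) and *ANXA5* 0.11 (-0.23 to 0.45).

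Of 11 genes of the neuromuscular junction 1 was named, *CHRNA1*, an acetylcholine receptor subunit, near background with 3.13 ± 0.47 in LD HIGH and 3.45 ± 0.32 in LD LOW (difference -0.33, -0.69 to 0.04). Of 11 genes of regenerating fibres 5 were named and 0 passed, with a median of -0.15. *NCAM1*, an adhesion molecule of regenerating and denervated fibres, had a difference of -0.15 (-0.30 to -0.01; unadjusted p = 0.033, adjusted p = 0.993 in limma) at a mean of 3.12. The myogenic factors *MYF6*, *MYOD1* and *MYF5* had differences of 0.55 (-0.03 to 1.13), -0.56 (-1.18 to 0.07) and -0.23 (-0.56 to 0.09).

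Co-variation of the partners with *LAMA2* and *DMD* was examined over 27 detected probe sets of 20 genes of the dystrophin complex, basement membrane and integrin lists, giving 108 relations. After adjustment over these, 2 passed by Pearson's r, both of them the third *LAMA2* probe set with *LAMB1*. Its r was 0.76 with Ssc.15823.1.S1_at (permutation p = 0.00021, adjusted 0.023; rho = 0.75, adjusted 0.031) and 0.72 with Ssc.5299.1.S1_at (p = 0.00043, adjusted 0.023; rho = 0.70, adjusted 0.055). An r of 0.59 or more with the third *LAMA2* probe set was found for 5% of all detected probe sets. Without the 2 pigs farthest from the *LAMB1* median r was 0.69 for both. Within LD HIGH r was 0.81 and 0.79, and within LD LOW 0.75 and 0.46. With the first *LAMA2* probe set the same *LAMB1* probe sets gave 0.46 and 0.47, and with the second 0.26 and 0.20, none past the adjustment. Both *LAMB1* probe sets also followed the leading component (r = 0.63 and 0.65), and on residuals on it the relations with the third *LAMA2* probe set were 0.57 and 0.47.

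None of the other partners passed. *ITGB1*, the β1 integrin chain, gave r = 0.58, 0.54 and 0.59 with the 3 *LAMA2* probe sets in order (adjusted p = 0.19, 0.19 and 0.18 by permutation) and 0.34 with *DMD*. Among all detected probe sets, 5% reached an r of 0.46, 0.37 and 0.594 with these 3 *LAMA2* probe sets. With the third, *ITGB1* lay just below that limit, at 0.589. *SNTB1*, whose product binds dystrophin, gave 0.59 with *DMD* on Ssc.1024.1.S1_at (permutation p = 0.0082, adjusted 0.18) and 0.33 on its brighter probe set Ssc.8617.1.A1_at (adjusted p = 0.56). *LAMC1* gave 0.33 to 0.53 with *DMD* on its 4 probe sets (adjusted p = 0.19 to 0.56 by permutation), and -0.21 to 0.33 with the *LAMA2* probe sets. Of the 12 basement membrane probe sets, 4 of them *LAMC1*, r with *DMD* was positive for 12 (median 0.33), against 45.1% of all detected probe sets, but 0 passed the adjustment. Without the 2 pigs farthest from each one's median it was negative for 3 of the 12. With the *LAMA2* probe sets r was positive for 6, 5 and 5 of 12, against 45.2%, 44.5% and 46.5% of all detected probe sets. The lean towards positive r with *DMD* was not limited to basement membrane. In the integrin list it was positive for 8 of 11 probe sets (median 0.29), and in the dystrophin complex list for 3 of 4 (median 0.24). *DTNB*, dim with a mean of 3.43, was negative with the third *LAMA2* probe set (r = -0.61, adjusted p = 0.18 by permutation). It also followed the component (r = -0.72). An r of -0.66 or lower with that *LAMA2* probe set was found for 5% of all detected probe sets.

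**Figure D4:**
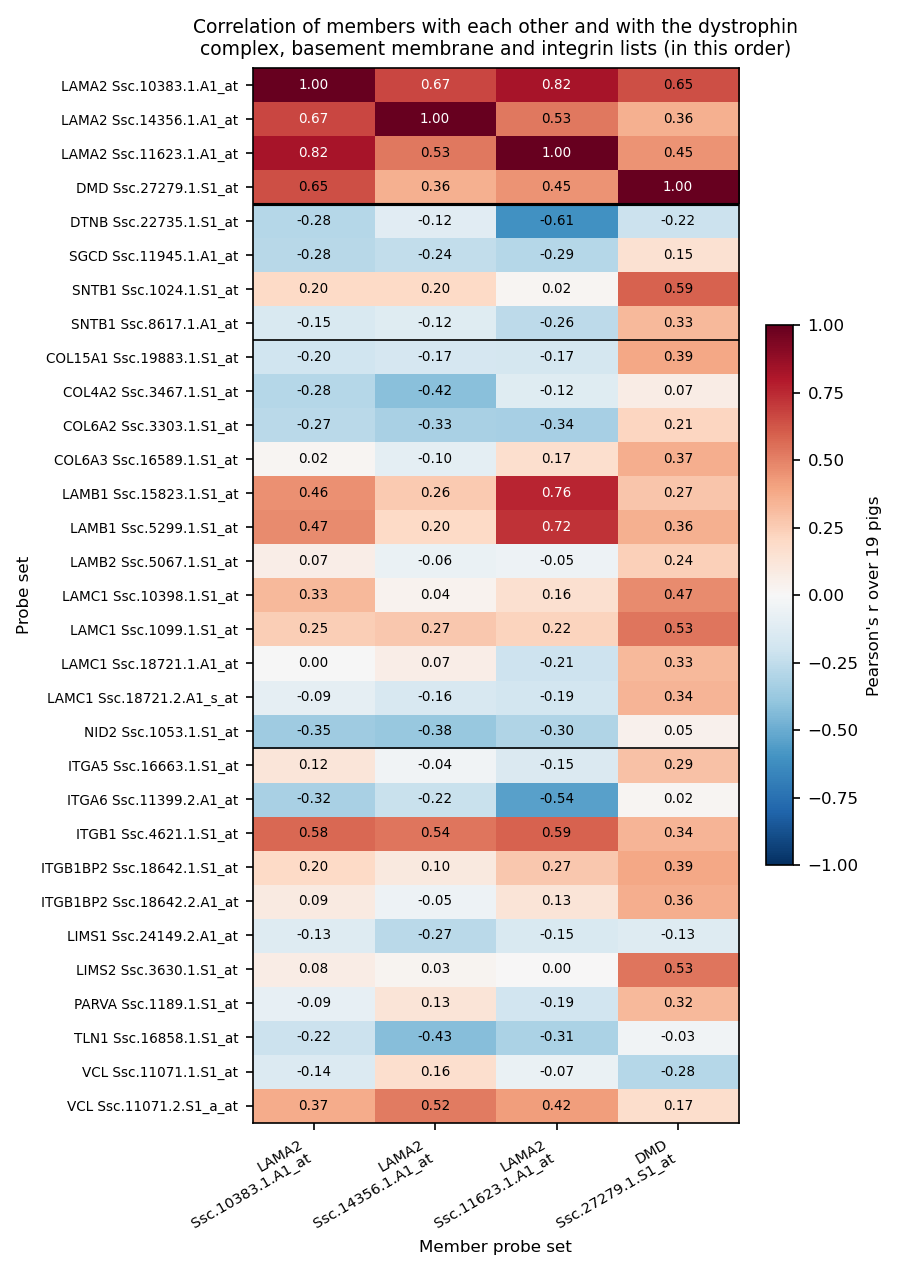
Pearson's r over 19 pigs between the 4 *LAMA2* and *DMD* probe sets (columns) and, from top to bottom, each other, the dystrophin complex, the basement membrane and the integrin link probe sets (rows), from -1 (blue) to 1 (red). The *LAMB1* probe sets stand out in the column of the third *LAMA2* probe set (0.76 and 0.72).

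The genes whose pattern over the 19 pigs was most like that of *LAMA2*, read from its brightest probe set, the third, were *CUL1* (r = 0.92), the scaffold of SCF ubiquitin ligases, *GSN* (0.91), the actin-severing protein gelsolin, *LOC100518575* (0.89), *SMIM20* (0.85), a small mitochondrial membrane protein, and *SEPT7* (0.85), a septin. All 5 also followed the leading component (r = 0.70 to 0.86), and their r with the first *LAMA2* probe set was 0.65 to 0.78 and with the second 0.23 to 0.49. On residuals on the component *CUL1* and *GSN* had r = 0.84 and 0.80. The paper names the probe set of *LOC100518575* as *COA3*. Like *LAMA2*, it is among its genes that differ between the *gluteus medius* and LD muscles. Most like *DMD* were *GNPTAB* (0.78), an enzyme that tags lysosomal proteins, *GGTA1P* (0.72), *SH3KBP1* (0.72), an endocytic adaptor, *MVB12B* (0.70), a subunit of the endosomal sorting complex ESCRT-I, and *BPGM* (0.69), which makes 2,3-bisphosphoglycerate. These values are descriptions of 19 arrays, on which all probe sets share the same RNA sample and normalization.

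Markers of other cell types were set beside the *LAMA2* and *DMD* values as means of the detected genes of each list, 28 relations in all. The 6 detected endothelial markers ran against the third *LAMA2* probe set (r = -0.71, permutation p = 0.00066, adjusted 0.018; rho = -0.71, adjusted 0.026) and the first (r = -0.67, permutation p = 0.0018, adjusted 0.025; rho = -0.58, adjusted 0.15), with -0.36 for the second and -0.40 for *DMD*, neither past the adjustment. All 7 endothelial genes were named, *KDR* at background on all arrays, and their summed linear signal ran from 588 to 1061 in LD HIGH and from 644 to 922 in LD LOW. The endothelial mean also followed the leading component (r = -0.66), and on residuals on it the relations were -0.56, -0.22 and -0.42 with the *LAMA2* probe sets in order and -0.59 with *DMD*. The remaining 26 relations did not pass, among them muscle fibre (r = -0.32 to 0.19), fibroblast (-0.17 to 0.29) and macrophage markers (-0.41 to 0.02). Among them too, smooth muscle and pericyte markers gave -0.30 to 0.07 and Schwann cell markers 0.18 to 0.46. Of the adipocyte markers 5 of 8 were named, with *LEP* at background, and 2 were higher in LD HIGH at an unadjusted p under 0.05, against 1.87% of all probe sets, with a list median of 0.09: *FABP4* (difference 0.58) and *ADIPOQ* (1.39), adjusted p = 0.993 in limma. The summed linear signal of the 5 adipocyte genes ran from 2922 to 4391 in LD HIGH and from 2341 to 3823 in LD LOW. The mean of the 3 adipocyte markers above the tag controls on all arrays, *CFD*, *FABP4* and *LPL*, correlated with the *LAMA2* and *DMD* probe sets at -0.30 to 0.04. *ADIPOQ*, above the controls on 18 arrays, was not part of that mean. Of the fibroblast, smooth muscle and pericyte, macrophage and Schwann cell markers 6 of 8, 6 of 7, 7 of 10 and 3 of 6 were named, and 0 passed in limma. Of the 14 muscle fibre genes 2 were lower in LD HIGH at an unadjusted p under 0.05, against 1.64% of all probe sets: *RYR1* (difference -0.30) and *PYGM* (-0.12), with an adjusted p of 0.993 in limma. Of the 14 differences 5 were above 0 and the median was -0.03. The part of other cell types in the *LAMA2* and *DMD* values was not tested.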

How the data were processed

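RNA of 19 LD samples was hybridised to the GeneChip Porcine Genome Array. Per the labels, the deposited log2 signals are GCRMA values (no version stated in the processing notes), that is, background adjusted with probe sequence content and arrays normalized together by the authors, which can compress dim signals and alter correlations between probe sets. The paper's methods describe RMA. A further file with 4268 probe sets (30 controls) repeats their log2 values unchanged, and its selection rule was not found. It served as an alternative.

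Of 24114 probe sets 115 controls were left out. Names came from the platform annotation (10069 probe sets with 1 symbol, of which 9961 matched RefSeq of Sscrofa11.1 by gene number, and 198 with several), from the paper's gene table (44) and by gene number (1), which leaves 13687 unnamed here. The group contrast, LD HIGH minus LD LOW, was fitted with lmFit and eBayes of limma 3.58.1 (R 4.3.3) with the trend option that the paper's methods name, without covariates. P-values were adjusted after Benjamini-Hochberg over all 23999 probe sets, and an adjusted p under 0.05 was called. Correlations over pigs were tested two-sided with 100000 permutations (numpy) and adjusted within each family. The steps were tested on simulated data.

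The members and gene lists were chosen with earlier results of these data known. The text names all member probe sets, per list up to 4 genes with the smallest unadjusted p and those at background, and the 5 genes most correlated with each member gene. Named outside that rule, after their values were seen, were *LAMC1* in the group comparison and *LAMB1*, *LAMC1*, *ITGB1*, *SNTB1* and *DTNB* in the correlations with partner genes. Those correlations, those with the markers, the array median and the component, and the fits without pigs 1533 and 1536 together were also chosen after the data were seen. Each pig is a separate animal. The number of arrays limits the precision. Alternatives were fits without a trend, with robust variances, with the 3' minus 5' signal as covariate, on rescaled arrays or fewer probe sets, and without each pig.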

Additional observations from a re-analysis of the deposited data

Results flagged for a closer look

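In the 12 sets of values examined for a pig far from its group (4 probe sets, the array median and the 3' minus 5' signal, each in LD HIGH and LD LOW), 2 values stood apart, where chance gives about 1 in 20 sets (0.6 of 12). None was a *LAMA2* or *DMD* value. The array median of LD HIGH pig 1536 was 3.59, against 3.47 ± 0.03 (SD, n = 9) in the other LD HIGH pigs. This pig had 7.30, 6.37 and 7.60 on the 3 *LAMA2* probe sets in order and 6.78 for *DMD*. The 3' minus 5' signal of LD LOW pig 1444 was 1.61, against 1.003 ± 0.15 (SD, n = 8) in the other LD LOW pigs, with *LAMA2* at 7.62, 6.29 and 8.63 and *DMD* at 6.80, the lowest *DMD* value in LD LOW.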

How the results depend on the processing

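Under each alternative 0 probe sets passed between LD HIGH and LD LOW, members or others, without each pig included. The lowest adjusted p of any probe set was 0.256 in the fit without LD LOW pig 8700. At an unadjusted p under 0.05 the split of higher against lower was 449 to 394, and 344 to 619 with arrays centred on their median. The differences of the third *LAMA2* probe set and *DMD* kept their sign throughout (0.06 to 0.28 and -0.29 to -0.14 when each pig was left out). Those of the first and second ran from -0.118 to 0.087 and from -0.149 to 0.0906, above 0 without 6 and 5 of the pigs, each time with an adjusted p of 0.90 or more. When each pig was left out, r of the first and the second *LAMA2* probe sets ran from 0.50 to 0.74, of the first and the third from 0.78 to 0.86, of the second and the third from 0.39 to 0.66 and of the third with *DMD* from 0.34 to 0.59. Without LD HIGH pigs 1533 and 1536 together, the first and the second gave 0.47 (adjusted p = 0.11) and the second and the third 0.36 (adjusted p = 0.23). With quantile normalization repeated the second and the third gave 0.46 (adjusted p = 0.068). The third with *DMD* passed at 0.51 centred on group means (adjusted p = 0.028), at 0.74 on residuals on the leading component, at 0.59, 0.55 and 0.50 without LD HIGH pigs 2144 and 8697 and LD LOW pig 1918, all by permutation. With the mean of the 3 *LAMA2* probe sets in its place r was 0.54, and with the brighter of those named by symbol, the first, 0.65, and both passed. Why these moved was not tested. Taken over all named probe sets in place of 1 per gene, list medians were -0.03 for regenerating fibre (-0.15), -0.19 for the dystrophin complex (-0.12), 0.02 for basement membrane (-0.02), -0.02 for the integrin link (-0.03), -0.02 for the cytoskeleton (-0.04) and 0.09 for membrane repair (0.14). No paired analysis was possible because LD HIGH and LD LOW pigs share no replicate numbers.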
